A study of Mus musculus with 6 samples.

Results

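Glutathione is the main small thiol of the cell, and the enzymes that make it, recycle it and use it were read here in cochlear tissue of *Cmah*-null and WT mice. The members were chosen by gene symbol, without use of their values: glutathione S-transferases of the alpha, mu, pi, theta, omega, kappa and zeta classes, microsomal transferases, glutathione peroxidases, and the genes *Gclc*, *Gclm*, *Gss*, *Gsr*, *Ggt1*, *Glrx*, *Glrx2* and *G6pdx*. This rule found 38 of the 18138 gene symbols on the array, covered by 55 of its 25697 probes, and *Gsr*, glutathione reductase, was not matched. Where a symbol had several probes, as 13 members did, the probe with the highest mean signal was used. *Cmah* encodes the hydroxylase that makes the sialic acid Neu5Gc, and the mutants carried the *Cmah* tm1Ykoz knockout allele. Both groups were mice aged 12 months, of strain C57BL/6 in the sample records and C57BL/6J in the methods of the study, without any treatment named in the records, with 3 arrays of WT and 3 of *Cmah*-null cochleae, and the sex of the mice was not used here. The records give 1 sample per array but do not say whether tissue was pooled, so p-values measure the spread between these samples.

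Glutathione is built from glutamate, cysteine and glycine by glutamate-cysteine ligase and glutathione synthetase. Peroxidases spend it to reduce hydrogen peroxide and lipid peroxides, transferases attach it to reactive compounds, and glutaredoxins use it to reset protein thiols, while NADPH from the pentose phosphate pathway keeps it reduced. In the cochlea this system is known as a defence of hair cells and the stria vascularis against reactive oxygen species.

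A probe was taken as detected at a detection p under 0.05, and between 13873 and 15223 probes were detected on each array. The *Cmah* probe lay near background, detected on 1 WT and 2 *Cmah*-null arrays, so it does not check the genotypes. *Cmah*-null replicate 3 stood apart: the SD of its log2 difference from each other array was 0.56 to 0.64, against 0.31 to 0.44 for other pairs and 0.13 for *Cmah*-null replicates 1 and 2. Values are therefore also given without replicate 3. Those fits rest on *Cmah*-null replicates 1 and 2, which are close to each other. Their standard errors and p-values thus hold little spread between *Cmah*-null samples. The arrays also fell into a set with a median of 32 to 34 beads per probe (WT replicate 1, *Cmah*-null replicates 1 and 2) and a set with 38 or 39 (the other arrays). *Cmah*-null replicate 3 and WT replicate 1 were each the only array of their genotype in their set. A fit with the bead sets as a block therefore gives these arrays more weight than the fit without it. The whole tissue was measured, so fewer cells of a type and less RNA per cell cannot be told apart. Marker genes of other tissues differed in mean between genotypes. All 7 brown fat markers had lower means in *Cmah*-null mice, 5 of them by at least 1.5-fold (limma unadjusted p below 0.05), and their summed log2 signal was 15.43 to 16.23 in WT and 13.53 to 14.73 in *Cmah*-null mice. All 10 skeletal muscle markers had lower means, none past that criterion, with sums of 17.52 to 18.27 and 17.50 to 17.78. All 4 choroid plexus markers had higher means, 3 past the criterion, with sums of 12.20 to 15.44 and 15.35 to 15.76. Means were lower for all 5 bone, all 5 myelin and all 5 neuron markers (1 neuron marker past the criterion, *Nefl* and *Snap25* not detected) and higher for all 4 epidermis markers, with sums that overlapped between genotypes in each list. Of the 6 fat markers 4 had lower means and 1 was past the criterion, lower. Their sums were 14.69 to 15.80 in WT and 15.63, 15.61 and 14.10 in *Cmah*-null replicates 1, 2 and 3. Red cell, neutrophil and marrow, cartilage and cochlear support lists had no marker past the criterion, and their sums overlapped. Of the 4 stria vascularis markers 2 had lower means and 1 was past the criterion, higher. Of the 6 hair cell markers, *Slc26a5* and *Pou4f3* were not detected, and the sum was 10.21 to 10.39 in WT and 10.31 to 10.49 in *Cmah*-null mice. The part of these tissues in the results below was not tested.

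Of the 38 members, 30 were detected on all 6 arrays. *Gclc* was detected on 2 arrays, and *Gsta2* and *Gstm6* on 5 each. *Ggt1*, *Gpx5*, *Gpx6*, *Gstm3* and *Gstt4* were detected on none and are given no fold change. Log2 signals were compared with limma, and signals of different probes were not compared as levels.

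The antioxidant response element is the site at which the factor Nrf2 acts on many glutathione genes, and its core letters TGACNNNGC were searched on both strands of 300-base RefSeq promoter windows (build GRCm38.p6, 250 bases before and 50 after the start). Of the 35 members with a window, 6 held a match, and 14% of all genes with a window did. Counted by window, 8 of the 53 member windows held one, against 12.4% of all windows. The matches of the 5 members detected on all arrays are shown with 15 bases on each side, read along the gene's strand, with the match in capitals, because the differences of these 5 members between genotypes can be read against them.
Gclm (chr3:122245408-122245446, plus strand): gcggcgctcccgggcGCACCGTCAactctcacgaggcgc
Mgst1 (chr6:138140456-138140494, plus strand): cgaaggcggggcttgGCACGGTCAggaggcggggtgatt
Gsta3 (chr1:21240449-21240487, plus strand): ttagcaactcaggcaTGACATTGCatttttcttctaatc
Gstm5 (chr3:107895797-107895835, plus strand): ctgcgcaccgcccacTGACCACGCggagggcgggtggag
G6pdx (chrX:74428914-74428952, minus strand): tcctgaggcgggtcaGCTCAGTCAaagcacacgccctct
In *Gclm*, *Mgst1* and *G6pdx* the letters lie on the opposite strand. These 5 members had log2 differences between *Cmah*-null and WT mice of 0.69, -0.72, -0.16, -0.58 and 0.02 in the order shown, with all arrays. Without *Cmah*-null replicate 3 they were 0.26, 0.23, 0.28, 0.21 and 0.37, all higher in *Cmah*-null mice. Without that array 19 of the 30 members detected on all arrays had higher means. None of the 5 reached 1.5-fold with a limma unadjusted p under 0.05 in either fit. A match is a description of the sequence and does not show binding.

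Across the array, limma gave 0 of 25697 probes (0%) with an adjusted p below 0.05. The lowest adjusted p was 0.25, and the unadjusted p was below 0.05 for 2199 probes. The members were no exception: 0 of 38 passed, with a smallest adjusted p of 0.397 in limma, and 2 had an unadjusted p under 0.05. Both of these were peroxidases. A member was called at a difference of at least 1.5-fold with an unadjusted p under 0.05. *Gpx4* was called lower, 1 of 38 members against 1.46% of all symbols, and *Gpx3* was called higher, 1 of 38 against 1.61%. Over symbols detected on all arrays these shares were 2.54% and 2.73%. At 1.5-fold alone 7 members differed, *Gpx4*, *Mgst1*, *Mgst3* and *Gstz1* lower and *Gpx3*, *Gstm1* and *Gclm* higher, and the study had picked all 7 on these same samples for its glutathione list, so the list is not independent evidence of a direction.

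The median log2 difference of the members was -0.13, against 0.01 over all symbols. Among the 30 detected members, 19 had lower and 11 had higher means in *Cmah*-null mice, a split that turned to 12 lower and 18 higher under median scaling, in which each array is only shifted to a common median, and which moved the median of all detected symbols to 0.34. Without *Cmah*-null replicate 3 this turned to 11 lower and 19 higher, and the median over the detected members moved from -0.18 to 0.11, while that of all detected symbols stayed at 0.04. *Cmah*-null replicate 3 was the lowest of the 6 arrays in 21 of the 30 members, against 30.9% of detected symbols, and lay at least 1 log2 unit below the mean of the other *Cmah*-null arrays in 15 members, against 10.6% of detected symbols. It was the highest array in 5 of the 30 members, against 37.9% of detected symbols. At least 1 log2 unit above that mean it lay in 2 members, against 9.36% of detected symbols. The median log2 signal over the 38 members was 10.30 to 10.39 on the WT arrays, 10.73 and 10.70 on *Cmah*-null replicates 1 and 2, and 9.25 on replicate 3.

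**Figure D1:**
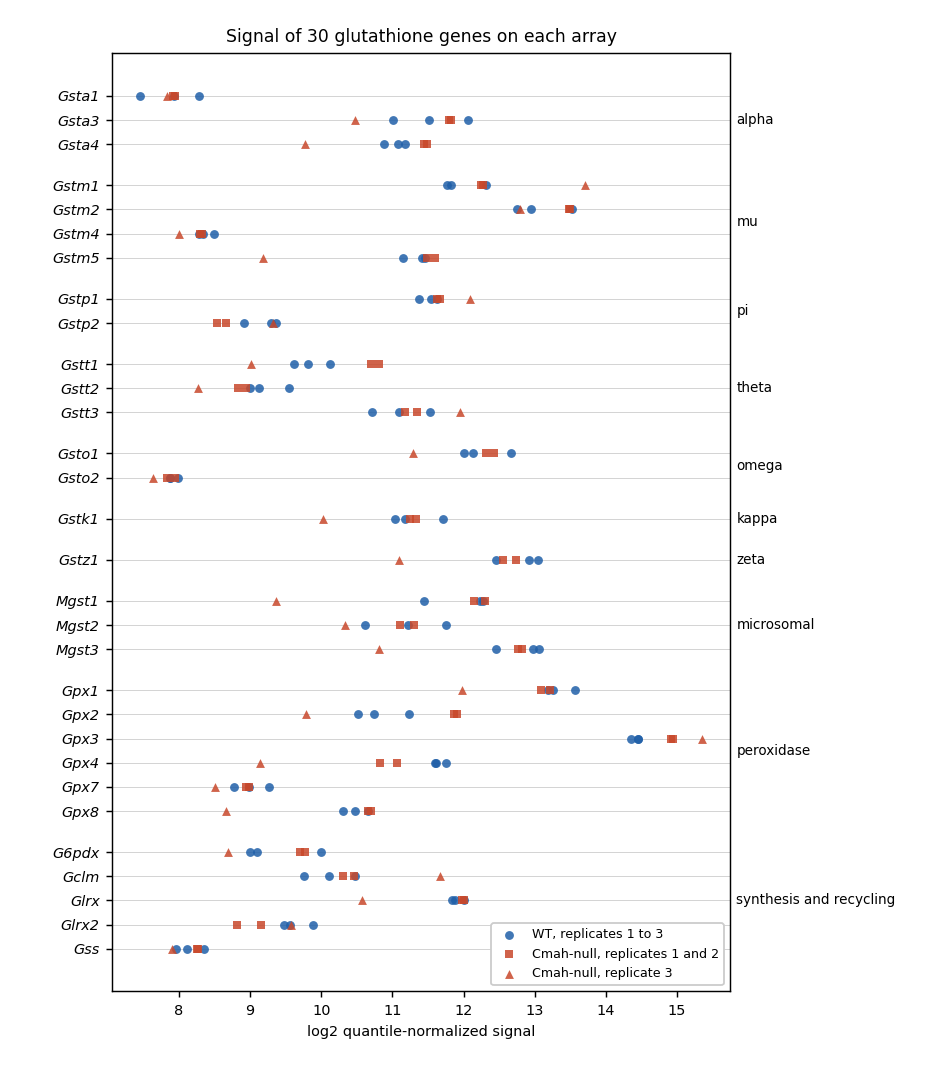
Log2 signal of the glutathione members on each array, by gene and enzyme class (blue circles WT, red squares *Cmah*-null replicates 1 and 2, red triangles *Cmah*-null replicate 3). The triangle is the lowest point in 21 of the 30 members detected on all arrays.

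**Figure D2:**
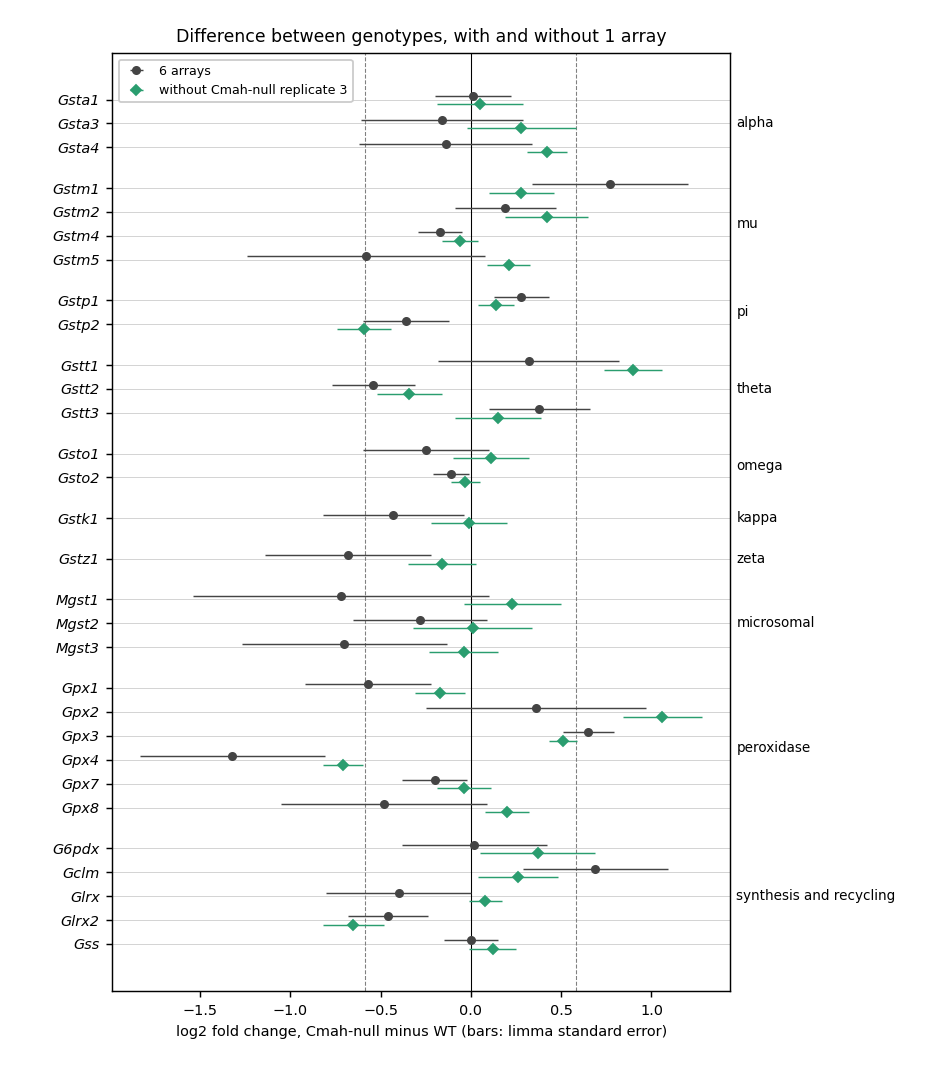
Log2 difference between *Cmah*-null and WT means of the 30 members detected on all arrays. Grey circles are from all arrays and green diamonds from the fit without *Cmah*-null replicate 3. Bars are limma standard errors, and dashed lines mark 1.5-fold. With all arrays *Gpx4* lies farthest to the lower side at -1.32 and *Gstm1* farthest to the higher side at 0.77. Without replicate 3 *Gpx4* is lowest at -0.71 and *Gpx2* highest at 1.06.

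Synthesis and recycling were read first. *Gclm*, the modifier subunit of glutamate-cysteine ligase (probe ILMN_1256354, band 3qG1), had log2 signals of 10.48, 10.11 and 9.76 in WT and 10.46, 10.30 and 11.67 in *Cmah*-null mice. The groups overlapped, and *Cmah*-null replicate 3 was the highest array. The difference was 0.69 (SE 0.40, limma adjusted p = 0.683), and 0.26 without that array. *Gclc*, the catalytic subunit, was detected on 2 WT arrays only, with signals of 7.41, 7.51 and 8.11 in WT and 7.38, 7.31 and 7.56 in *Cmah*-null mice, close to background. *Gss*, glutathione synthetase, had signals of 8.36, 8.11 and 7.96 in WT and 8.27, 8.26 and 7.91 in *Cmah*-null mice. Its groups covered nearly the same range, with a difference of 0.00 (SE 0.15).

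*G6pdx*, glucose-6-phosphate dehydrogenase, supplies the NADPH that keeps glutathione reduced. Its signals were 10.00, 9.10 and 9.0 in WT and 9.70, 9.77 and 8.69 in *Cmah*-null mice, with a difference of 0.02 (SE 0.40, limma adjusted p = 0.991). In both groups the arrays with fewer beads per probe were the high ones, and with the bead sets as a block the difference was -0.31. *Glrx2*, the mitochondrial glutaredoxin, had signals of 9.56, 9.89 and 9.48 in WT and 9.16, 8.82 and 9.58 in *Cmah*-null mice. *Cmah*-null replicates 1 and 2 lay below all WT arrays and replicate 3 did not. The difference was -0.46 (SE 0.22, limma adjusted p = 0.63), and -0.65 without replicate 3, where it met the calling criterion. A second *Glrx2* probe (ILMN_3096267) gave 0.07, the opposite direction. *Glrx*, the cytosolic glutaredoxin, had a difference of -0.40, and 0.08 both without replicate 3 and with median scaling. In this group of 7 members, 5 were detected on all arrays, 2 with lower and 3 with higher means. The 3 include *Gss* at 0.00 (SE 0.15) and *G6pdx* at 0.02 (SE 0.40), which show no direction.

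The peroxidases held both called members. *Gpx4* reduces lipid peroxides within membranes and restrains ferroptosis. Its probe (ILMN_3100812, band 10qC1) reads all annotated transcript forms, and its sequence is shown because the largest difference of the members was read with it.
Gpx4 ILMN_3100812: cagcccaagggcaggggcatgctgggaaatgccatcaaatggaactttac
*Gpx4* had log2 signals of 11.75, 11.61 and 11.60 in WT and 10.82, 11.06 and 9.14 in *Cmah*-null mice. All *Cmah*-null arrays lay below all WT arrays, and replicate 3 was far below the other 2. The means were 11.66 ± 0.08 and 10.34 ± 1.05 (SD, n = 3), a 2.49-fold lower signal in *Cmah*-null mice (log2 difference -1.32, SE 0.51, limma unadjusted p = 0.042, adjusted p = 0.574). Without replicate 3 the difference was -0.71 (SE 0.11), and within the arrays with fewer and with more beads it was -0.81 and -2.47. With WT replicate 1, 2 or 3 left out the difference was about as large, at -1.27, -1.34 and -1.34, but did not meet the calling criterion (limma unadjusted p = 0.1, 0.092 and 0.089). The isoform-specific *Gpx4* probe was detected on 1 array and gives no comparison, and the mean over both probes was -0.70.

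*Gpx3*, the secreted plasma peroxidase (ILMN_2715546, band 11qB1.3), had signals of 14.45, 14.35 and 14.45 in WT and 14.91, 14.94 and 15.35 in *Cmah*-null mice. Every *Cmah*-null array lay above every WT array. The means were 14.42 ± 0.05 and 15.07 ± 0.25 (SD, n = 3), a 1.57-fold higher signal (log2 difference 0.65, SE 0.14, limma unadjusted p = 0.0034, adjusted p = 0.397). Without replicate 3 it was 0.51 (SE 0.08), under 1.5-fold, and within the arrays with fewer and with more beads 0.47 and 0.95.

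The other detected peroxidases overlapped between genotypes. *Gpx1*, the abundant cytosolic peroxidase, had signals of 13.18, 13.56 and 13.26 in WT and 13.09, 13.22 and 11.98 in *Cmah*-null mice. Its difference of -0.57 (SE 0.35, limma adjusted p = 0.694) was -0.17 without replicate 3. *Gpx2*, best known from the gut epithelium, had signals of 10.52, 10.74 and 11.23 in WT and 11.91, 11.87 and 9.78 in *Cmah*-null mice. *Cmah*-null replicates 1 and 2 lay above all WT arrays and replicate 3 below them. The difference was 0.36 (SE 0.61, limma adjusted p = 0.891) with all arrays and 1.06 without replicate 3, where it met the calling criterion. *Gpx7*, a peroxidase of the endoplasmic reticulum, had signals of 8.98, 9.27 and 8.78 in WT and 8.99, 8.95 and 8.51 in *Cmah*-null mice, a difference of -0.20 that was 0.07 with median scaling. *Gpx8*, another of that compartment, had signals of 10.30, 10.66 and 10.48 in WT and 10.66, 10.70 and 8.66 in *Cmah*-null mice, a difference of -0.48 that was 0.20 without replicate 3, and its second probe gave -0.50.

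**Figure D3:**
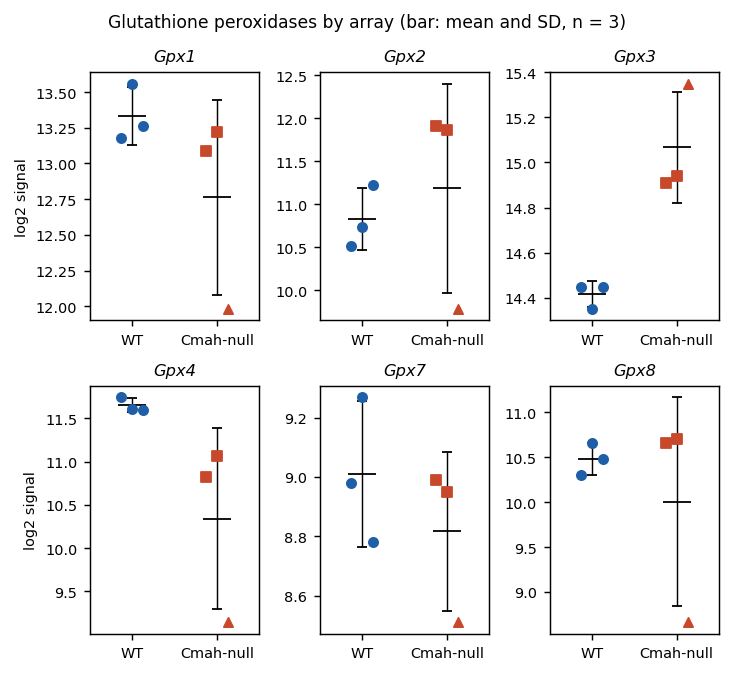
Log2 signal of the 6 detected peroxidases by array (blue circles WT, red squares *Cmah*-null replicates 1 and 2, red triangle *Cmah*-null replicate 3, with bars for the mean and SD, n = 3). The genotypes are apart for *Gpx4* and *Gpx3* only, and the triangle is the lowest point in every panel but *Gpx3*.

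The cytosolic transferases conjugate glutathione to drugs, lipid aldehydes and other electrophiles. None was called with all arrays and no block on the deposited values, and 4 were called with the bead sets as a block. That block also raised the number called among all 25697 probes, from 697 to 1728. Of the mu class, *Gstm1* had signals of 11.83, 11.77 and 12.32 in WT and 12.28, 12.24 and 13.71 in *Cmah*-null mice. The groups overlapped, with replicate 3 the highest array. The difference was 0.77 (SE 0.43, limma adjusted p = 0.676), and 0.28 without that array. It met the calling criterion at 1.05 with the bead block, at 0.77 with the replicate block and at 1.27 with median scaling (limma unadjusted p = 0.023, 0.034 and 0.0045). *Gstm5* went the other way in replicate 3, with 11.41, 11.46 and 11.15 in WT and 11.49, 11.60 and 9.18 in *Cmah*-null mice. Its difference of -0.58 (SE 0.66, limma adjusted p = 0.829) became 0.21 without replicate 3. *Gstm2* was read by 3 probes that gave 0.19, 0.26 and 0.46, the last with signals of 10.75, 10.25 and 10.55 in WT and 11.50, 11.56 and 9.86 in *Cmah*-null mice. On that probe *Cmah*-null replicates 1 and 2 were above all WT arrays and replicate 3 was below them. Over the 4 mu members detected on all arrays, the differences ran from -0.58 to 0.77.

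In the alpha class, which also reduces lipid peroxides, 3 of 4 members were detected on all arrays. *Gsta3* had signals of 11.01, 11.52 and 12.06 in WT and 11.80, 11.83 and 10.47 in *Cmah*-null mice, a difference of -0.16 (SE 0.45, limma adjusted p = 0.938) that was 0.32 with median scaling. *Gsta1* had signals of 7.46, 7.93 and 8.28 in WT and 7.92, 7.95 and 7.83 in *Cmah*-null mice, a difference of 0.01 (SE 0.21). The groups overlapped for both. *Gsta4*, which is known for conjugating the lipid aldehyde hydroxynonenal, had signals of 10.88, 11.08 and 11.18 in WT and 11.45, 11.48 and 9.77 in *Cmah*-null mice, a difference of -0.14 that was 0.42 without replicate 3 and 0.32 with median scaling. The alpha median was -0.14, and 0.28 without replicate 3.

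The pi class was read by several probes that did not give the same direction. *Gstp1* probe ILMN_1223230 (band 19qA) had signals of 11.63, 11.54 and 11.37 in WT and 11.63, 11.67 and 12.09 in *Cmah*-null mice. The groups did not overlap, but WT replicate 1 and *Cmah*-null replicate 1 were equal to the second decimal, and the difference was 0.28 (SE 0.15, limma adjusted p = 0.661). Probe ILMN_2677046 gave -0.21 (SE 0.11), with 11.24, 11.08 and 10.90 in WT and 10.76, 10.97 and 10.87 in *Cmah*-null mice. Probe ILMN_2793329 gave 0.04 (SE 0.25). The first and last overlap by 18 bases, shown in capitals, and gave 0.28 and 0.04.
Gstp1 ILMN_1223230: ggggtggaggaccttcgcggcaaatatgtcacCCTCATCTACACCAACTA
Gstp1 ILMN_2793329: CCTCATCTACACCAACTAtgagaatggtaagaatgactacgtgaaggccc
*Gstp2*, a close copy of *Gstp1*, had signals of 9.29, 9.37 and 8.92 in WT and 8.54, 8.66 and 9.32 in *Cmah*-null mice. The difference was -0.36 (SE 0.24, limma adjusted p = 0.716), and -0.59 without replicate 3, where it met the calling criterion. Transferases of the pi, mu and alpha classes have near-identical copies, and cross-hybridization between them was not tested.

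Theta transferases are an older branch of the family. *Gstt2* had signals of 9.0, 9.12 and 9.55 in WT and 8.94, 8.83 and 8.27 in *Cmah*-null mice. All *Cmah*-null arrays lay below all WT arrays. The difference was -0.54 (SE 0.23, limma unadjusted p = 0.056, adjusted p = 0.595), and -0.34 without replicate 3. *Gstt3* had signals of 10.71, 11.10 and 11.53 in WT and 11.34, 11.18 and 11.95 in *Cmah*-null mice, a difference of 0.38 (SE 0.28, limma adjusted p = 0.741). It met the calling criterion at 0.59 with the bead block and at 0.89 with median scaling (limma unadjusted p = 0.009 and 0.0011). *Gstt1* had signals of 9.82, 9.62 and 10.12 in WT and 10.81, 10.70 and 9.02 in *Cmah*-null mice. As with *Gpx2*, *Cmah*-null replicates 1 and 2 lay above WT and replicate 3 below. The difference was 0.32 (SE 0.50, limma adjusted p = 0.877), and 0.90 without replicate 3, where it met the calling criterion.

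*Gstz1*, the zeta transferase of tyrosine breakdown, had signals of 12.92, 12.46 and 13.04 in WT and 12.55, 12.74 and 11.09 in *Cmah*-null mice, a difference of -0.68 (SE 0.46, limma adjusted p = 0.718) that was -0.16 without replicate 3. *Gstk1*, the mitochondrial and peroxisomal kappa transferase, had signals of 11.71, 11.18 and 11.03 in WT and 11.25, 11.33 and 10.03 in *Cmah*-null mice, a difference of -0.43 that was -0.01 without replicate 3 and 0.04 with median scaling. *Gsto1*, an omega transferase with glutaredoxin-like activity, had signals of 12.67, 12.13 and 12.00 in WT and 12.32, 12.43 and 11.29 in *Cmah*-null mice, a difference of -0.25 that was 0.11 without replicate 3 and 0.24 with median scaling. In all 3 the groups overlapped and replicate 3 was the lowest array. With the bead block *Gstz1* was at -0.97 and *Gstk1* at -0.74, both past the calling criterion (limma unadjusted p = 0.043 and 0.007).

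The microsomal transferases are membrane proteins unrelated in sequence to the cytosolic ones, and all 3 had lower means in *Cmah*-null mice, with a median of -0.70, though *Mgst2* was at 0.21 with median scaling. *Mgst1* had signals of 12.23, 11.45 and 12.28 in WT and 12.30, 12.14 and 9.36 in *Cmah*-null mice, a difference of -0.72 (SE 0.82, limma adjusted p = 0.827). *Mgst3* had signals of 13.06, 12.98 and 12.46 in WT and 12.76, 12.82 and 10.81 in *Cmah*-null mice, a difference of -0.70 (SE 0.57, limma adjusted p = 0.759). *Mgst2* had signals of 10.62, 11.22 and 11.75 in WT and 11.31, 11.11 and 10.34 in *Cmah*-null mice, a difference of -0.28. A second probe of *Mgst1* gave -0.86 and a second probe of *Mgst3* gave -0.88. Replicate 3 was the lowest array in each gene on its brightest probe, and without it the differences of *Mgst1*, *Mgst3* and *Mgst2* were 0.23, -0.04 and 0.01. With the bead block, which gave replicate 3 more weight, *Mgst3* was at -1.09 and past the calling criterion (limma unadjusted p = 0.043).

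**Figure D4:**
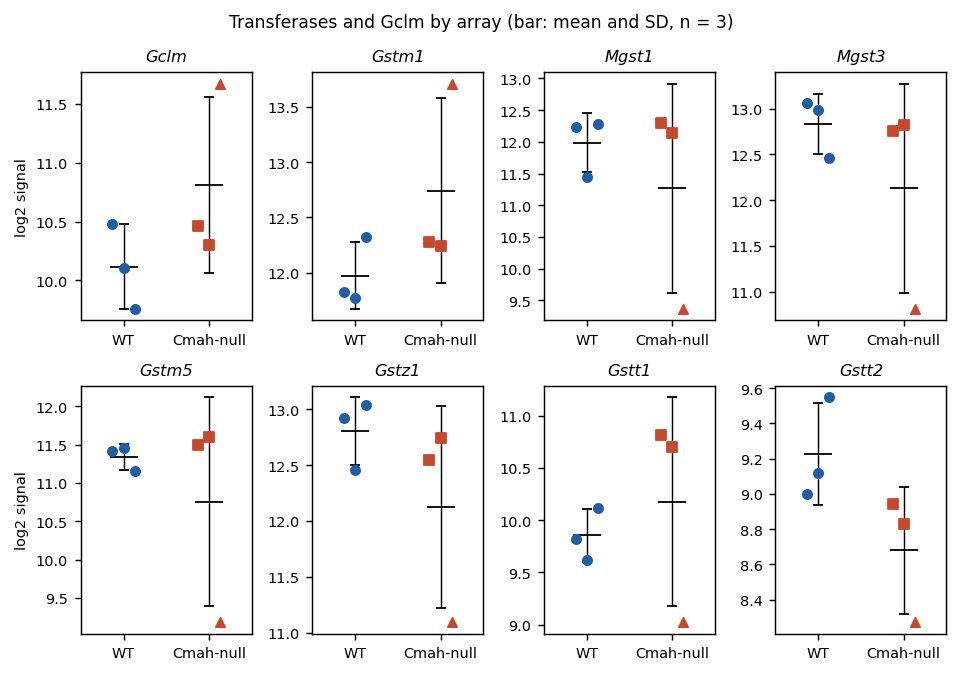
Log2 signal of *Gclm* and 7 transferases by array (blue circles WT, red squares *Cmah*-null replicates 1 and 2, red triangle *Cmah*-null replicate 3, with bars for the mean and SD, n = 3). Only the *Gstt2* groups are apart, and the triangle is the highest point for *Gclm* and *Gstm1* and the lowest for the other 6 genes.

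Over the 30 detected members, the groups were fully apart in 2 with lower signals in *Cmah*-null mice (*Gpx4*, *Gstt2*), against 7.43% of detected symbols, and in 2 with higher signals (*Gpx3*, *Gstp1*), against 12.1%. An exact permutation test of 3 against 3 arrays cannot go below p = 0.1. Without *Cmah*-null replicate 3, the called members were *Gpx4*, *Glrx2* and *Gstp2* lower, against 1.93% of all symbols, and *Gpx2* and *Gstt1* higher, against 2.02%. These calls rest on the close pair of *Cmah*-null replicates 1 and 2 (SD of their log2 difference 0.13), so they hold little spread between *Cmah*-null samples.

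Genes linked to glutathione were read from 5 lists, chosen with earlier results of these data known. Of their 64 genes, 59 were on the array and 45 were detected on all arrays, and 2 were called lower and 3 higher, against 1.46% and 1.61% of all symbols, with a median of 0.00 over those detected. *Glrx3*, a glutaredoxin of iron-sulphur handling, had signals of 9.40, 10.71 and 10.57 in WT and 9.24, 8.97 and 9.19 in *Cmah*-null mice. All *Cmah*-null arrays lay below WT, with a difference of -1.09 (SE 0.36, limma adjusted p = 0.534). It was -0.37, under 1.5-fold, as a mean over its 3 probes, and -0.29 and -1.45 within the arrays with fewer and with more beads. The call was lost at -1.08 with *Cmah*-null replicates 1 and 2 averaged, and at -0.85, -0.92 and -1.01 without WT replicate 2, WT replicate 3 and *Cmah*-null replicate 2 in turn. *Esd*, which hydrolyses S-formylglutathione, had signals of 9.51, 10.22 and 9.98 in WT and 9.24, 9.05 and 9.18 in *Cmah*-null mice. Its groups were also apart, with a difference of -0.75 (SE 0.19, limma adjusted p = 0.449). The call was lost at -0.15 as a mean over its 4 probes and at -0.41 with median scaling, and within the arrays with fewer and with more beads it was -0.37 and -0.91.

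*Alox5ap*, a membrane relative of the microsomal transferases that presents arachidonic acid for leukotriene synthesis, had signals of 10.04, 10.83 and 10.30 in WT and 11.34, 11.38 and 12.58 in *Cmah*-null mice. The groups were apart, with a difference of 1.38 (SE 0.39, limma adjusted p = 0.48), and 0.97 without replicate 3. The macrophage markers, cells in which *Alox5ap* is abundant, had summed log2 signals of 11.85 to 12.37 in WT and 12.59, 12.76 and 11.96 in *Cmah*-null mice, and their part in this difference was not tested. *Mafg*, a small Maf partner of Nrf2, had signals of 10.41, 10.53 and 11.17 in WT and 11.52, 11.42 and 11.68 in *Cmah*-null mice. Its groups were apart, with a difference of 0.84 (SE 0.21, limma adjusted p = 0.449). *Anpep*, a peptidase that splits the dipeptide left after glutathione breakdown, had signals of 8.78, 8.01 and 8.15 in WT and 8.84, 9.09 and 9.27 in *Cmah*-null mice. Its groups were apart by a small margin, with a difference of 0.76 (SE 0.23, limma adjusted p = 0.51). Within the arrays with fewer and with more beads it was 0.19 and 1.19, and the call was lost at 0.60 and 0.67 without WT replicate 2 and WT replicate 3.

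None of the 11 NADPH supply genes on the array was called with all arrays and no block. The median of the 9 detected on all arrays was -0.35, against 0.04 over all detected symbols, and -0.28 without replicate 3. With median scaling only *Idh1* (-0.58) and *Idh2* (-0.31) of these 9 were lower, and all detected symbols had a median of 0.34. *Idh1*, the cytosolic isocitrate dehydrogenase, had signals of 11.50, 10.67 and 10.66 in WT and 10.46, 10.47 and 8.89 in *Cmah*-null mice. The groups were apart, and the difference was -1.01 (SE 0.50, limma adjusted p = 0.64), or -0.48 without replicate 3. It met the calling criterion with the replicate block (-1.01, limma unadjusted p = 0.043) and with the bead block (-1.41, limma unadjusted p = 0.00053). *Tkt*, the transketolase of the pentose phosphate pathway, was at -0.43, and at -0.64 with the bead block, where it met the criterion (limma unadjusted p = 0.0014). It was at -0.28 without replicate 3 and at 0.09 with median scaling. Its WT signals were 13.48, 12.78 and 12.66, with WT replicate 1 the highest array. *Idh2*, the mitochondrial isocitrate dehydrogenase, had signals of 11.52, 12.33 and 12.34 in WT and 10.92, 10.75 and 12.07 in *Cmah*-null mice. Here replicate 3 lay among the WT arrays, and the difference was -0.82 (SE 0.42, limma adjusted p = 0.644), or -1.23 without it, where it met the calling criterion. In the Nrf2 list *Mafg* was the only gene called. *Nfe2l2*, which encodes Nrf2, had a difference of -0.06, and its targets *Nqo1* and *Srxn1* had -0.06 and -0.12, which with median scaling were 0.09, 0.09 and 0.34. Its target *Txn1*, thioredoxin, was at -0.71, and at -0.87 without replicate 3, with groups that overlapped, and *Hmox1*, heme oxygenase, detected on 2 arrays, was at -0.46. None of the 6 selenoprotein synthesis genes on the array, which make the selenocysteine of peroxidases such as *Gpx4*, was called.

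**Figure D5:**
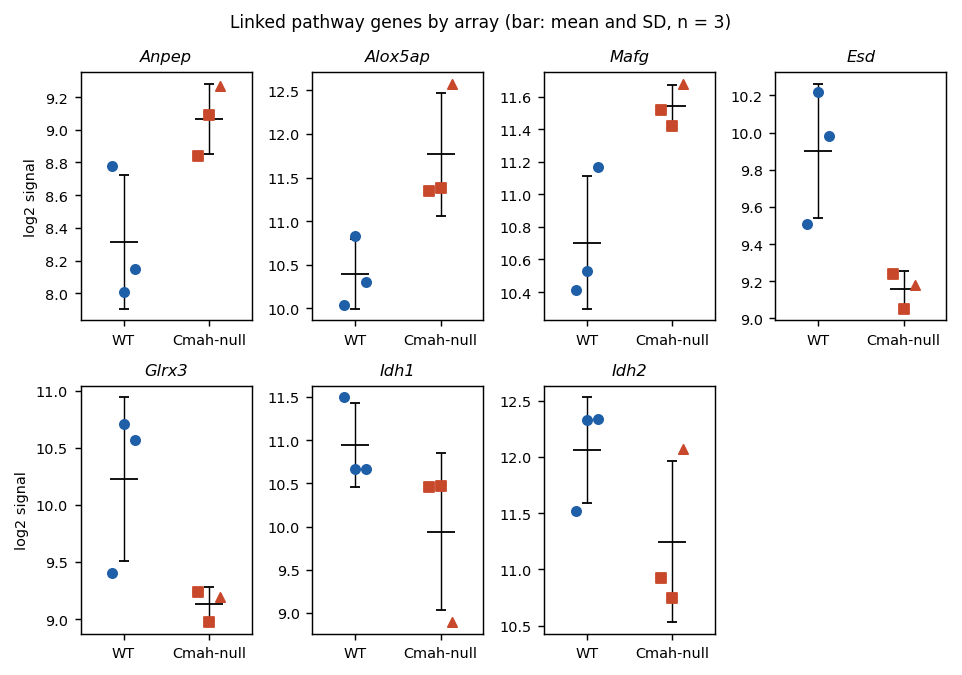
Log2 signal of 7 genes linked to glutathione by array (blue circles WT, red squares *Cmah*-null replicates 1 and 2, red triangle *Cmah*-null replicate 3, with bars for the mean and SD, n = 3). The genotypes are apart in every panel but *Idh2*, where the triangle lies among the WT points.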

How the data were processed

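Total RNA from cochlear tissue was hybridized to Illumina MouseRef-8 v2 arrays. The deposited raw table gives, per the file headers, the average bead signal as intensity, a detection p-value and counts of beads per probe. The deposited log2 values were made by the authors by quantile normalization, and equalled quantile-normalized log2 raw signals within 5.0e-07. Columns headed "old" do not name a genotype. They were taken as *Cmah*-null because the series has no other group besides WT, and were matched to the sample titles by number. Another 18 per-sample columns and 5 columns of the authors' comparison (fold changes, test statistics and adjusted p) were not used.

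The log2 values were fitted with limma 3.58.1 in R 4.3.3 (two-sided lmFit and eBayes without covariates). All 25697 probes entered the Benjamini-Hochberg adjustment, after the step was tested on simulated data. The rule for the members used gene symbols and no values, but members, lists and tests were chosen with earlier results of these data known. Genes named were called members, members whose groups did not overlap, those of the study's glutathione and PCR array lists, *Gss* and *G6pdx*, the largest rise and fall of each class, called linked genes, *Idh1*, *Idh2* and *Anpep*. Other genes were named after their values were seen. The number of arrays limits the precision. Alternatives were neqc (offset 16), median scaling, a filter on detection on at least 3 arrays, blocks for replicate number and for beads per probe (split at a median of 36), a variance prior with trend and robust, averaging *Cmah*-null replicates 1 and 2, averaging probes, and leaving out each array. Values within the bead sets were added after the data were seen. Plots were made in Python 3.11.15 with matplotlib 3.10.9.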

Additional observations from a re-analysis of the deposited data

How the results depend on the processing

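Median scaling moved the median of all detected symbols from 0.04 to 0.34 and that of the detected members from -0.18 to 0.09, so directions are relative to that shift. Over all 38 members the median moved from -0.13 to 0.07. With neqc the medians of detected symbols and detected members were 0.05 and -0.27. Median scaling, but not neqc, turned *Gpx7* to 0.07, *Gstk1* to 0.04, *Gsto1* to 0.24 and *Gsta3* to 0.32. As a mean over its probes *Gsta3* was 0.06. *Gpx4* was no longer called with neqc (-1.45, limma unadjusted p = 0.05) or median scaling (-0.86, limma unadjusted p = 0.21). Of all probes, 697 were called, against 1482 with neqc, 2488 with median scaling and 1728 with the bead block, and 3 passed an adjusted p in limma with the bead block. Members called lower numbered 1, but 0 with neqc, 0 with median scaling and 4 with the bead block (*Gpx4*, *Mgst3*, *Gstz1*, *Gstk1*). Members called higher numbered 1, but 5 with median scaling (*Gpx3*, *Gstm1*, *Gclm*, *Gstp1*, *Gstt3*) and 3 with the bead block (*Gpx3*, *Gstm1*, *Gstt3*). Linked genes called numbered 5, but 8 with median scaling and 12 with the bead block. *G6pdx* was -0.31 with the bead block and -0.15, and *Gsta1* -0.01, with *Cmah*-null replicates 1 and 2 averaged. The cause of these shifts was not tested.

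With 1 array left out, called probes ran from 429 (WT replicate 2 left out) to 1037 (WT replicate 3 left out). The same fits gave 0 (without any WT array) to 3 (without *Cmah*-null replicate 3) members lower, 1 to 2 higher (2 without *Cmah*-null replicate 3), a member median of -0.19 to 0.09 (0.09 without *Cmah*-null replicate 3) and 3 (without WT replicate 2) to 6 linked genes. The differences ran from -1.24 to 0.23 for *Mgst1*, -1.0 to 0.21 for *Gstm5*, -0.17 to 0.37 for *G6pdx*, -0.46 to 0.11 for *Gsto1*, -0.20 to 0.21 for *Gsta1* and -0.42 to 0.28 for *Gsta3*.

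Same-numbered arrays did not deviate together (r of 0.02, -0.17 and 0.01), and differently numbered arrays had r of -0.1 to 0.17. With so few arrays this cannot show whether same-numbered arrays shared a litter, day or batch, which the labels do not state. With the replicate block, 811 probes, 1 member lower, 2 members higher (*Gpx3*, *Gstm1*) and 6 linked genes (*Idh1* added) were called.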
